A study of Mus musculus with 26 samples.

Results

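The clustered protocadherins are cell-surface cadherins encoded by 3 gene clusters, alpha, beta and gamma, that lie one after another on mouse chromosome 18. Members were all genes in the count files whose mouse symbol begins with Pcdha, Pcdhb or Pcdhg, pseudogenes with the -ps ending left out and genes with few or no reads kept. The rule found 58 of the 54146 listed genes, of which 14 belonged to the alpha cluster, 22 to the beta cluster and 22 to the gamma cluster. Pcdha11 stood under 2 identifiers, and the symbol Pcdha10 matched none.

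The RNA came from a mouse model of acute myeloid leukemia. All cells were lineage-negative mouse bone marrow cells transduced with MLL-AF9 (MA9), a fusion oncogene of human leukemia. The MA9+SETDB1 arm also received SETDB1, an enzyme that methylates histone H3 on lysine 9, and the MA9+EV arm received the empty MSCVpuro retroviral vector. Both arms were cultured for 8 to 12 weeks, in IMDM with IL-3 and SCF, and selected with puromycin for about 3 to 6 weeks. Each arm had 3 RNA-seq libraries, numbered as replicates 1, 2 and 3. The labels do not say whether a line was clonal, whether replicates were separate transductions, which mouse strain gave the marrow or from which species the SETDB1 construct came, so the p-values measure only the spread between these libraries. The comparison asked how protocadherin transcripts differed when SETDB1 was overexpressed in MA9 cells. The other 20 of the 26 samples, chromatin immunoprecipitation and ATAC-seq, were not analysed here.

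Clustered protocadherins are best known in neurons, where each cell uses a small set of them and like proteins on touching membranes recognise each other. In the alpha and gamma clusters every variable first exon has its own promoter and is spliced to constant exons shared by the whole cluster, while each beta gene is a single coding exon. Choice among promoters is known to depend on CTCF, cohesin and DNA methylation, and SETDB1 is known to repress the clusters in mouse neurons. In the gamma cluster the A-type (Pcdhga) and B-type (Pcdhgb) genes alternate and the C-type genes Pcdhgc3, Pcdhgc4 and Pcdhgc5 stand at the downstream end.

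Gene counts summed to between 18070482 and 22561757 per library. Setdb1 was at 105, 108 and 109 CPM (reads scaled to library size by the TMM method) in MA9+EV replicates 1, 2 and 3 and at 475, 605 and 607 CPM in MA9+SETDB1. Its log2 fold change, MA9+SETDB1 over MA9+EV as throughout, was 2.39 with an SE of 0.13 and an edgeR adjusted p of 2.42e-05, and the arms did not overlap. Replicate 1 stood apart in both arms: the chi-square per degree of freedom over genes was 71.4 to 93.4 against replicates 2 and 3, and 4.03 (MA9+EV) and 2.99 (MA9+SETDB1) between replicates 2 and 3. Of 12986 tested genes, 27.4% passed the test upward in MA9+SETDB1 and 26.2% downward, at an adjusted p under 0.05. Markers of blood cell types moved as well. All 8 granule and monocyte markers fell (median log2 fold change -8.08), while all 8 mast cell and basophil markers (median 11.52) and all 8 erythroid markers (median 11.36) rose, against a median of -0.01 over all tested genes. Of 8 general blood cell markers, all were tested, with 3 higher and 2 lower (5 and 2 without replicate 1 of both arms).

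Protocadherin reads were scarce in MA9+EV and scarcer in MA9+SETDB1. All members together had 496, 622 and 507 reads in MA9+EV replicates 1, 2 and 3, and 31, 70 and 85 reads in MA9+SETDB1. The arms did not overlap. Scaled to library size the family sum averaged 23.9 ± 3 CPM without introduced SETDB1 and 3.47 ± 1.51 CPM with it (mean ± SD, n = 3 each). The ratio was 6.86, with an exact 95% binomial interval of 5.89 to 8.03 that, like every interval on a ratio here, covers counting error only. Of the 58 genes, 32 had a read in some MA9+EV library and 18 in some MA9+SETDB1 library. No gene had reads in MA9+SETDB1 alone, 14 had reads in MA9+EV alone and 26 had none. Depth differed: 3 reads over the arm stood for 0.056 CPM in MA9+SETDB1 and 0.044 CPM in MA9+EV. Most of the 14 had few reads, and no share over all genes stands beside these counts, which are an inventory. In bulk RNA, fewer cells with a transcript and less of it per cell cannot be told apart.

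The alpha cluster (chromosome 18, 36930285 to 37188897, RefSeq annotation of GRCm38) was almost unread. Its genes summed to 0, 1 and 2 reads in the MA9+EV libraries and to 0 in each MA9+SETDB1 library. Pcdha8 gave 2 of these reads and Pcdha12 gave 1. The other alpha identifiers, the C-type genes Pcdhac1 and Pcdhac2 among them, had none. Both arms were at or under 3 reads over the arm, the floor used here for a count of 0. A difference was not detectable in these counts. For a single library this floor was 0.124 to 0.183 CPM. Reads in the constant exons shared by the alpha genes can go uncounted, so few counted reads need not mean little RNA.

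Beta genes (chromosome 18, 37264998 to 37521419) were read at a low level in MA9+EV. Their sum was 7, 33 and 21 reads in the MA9+EV libraries and 1, 2 and 1 in MA9+SETDB1. MA9+EV replicate 1 was the lowest of its arm and still above every MA9+SETDB1 library. The scaled sum was 0.905 ± 0.556 CPM against 0.0765 ± 0.0392 CPM (n = 3 each), a ratio of 12 with an interval of 4.45 to 45.4. Of the 22 genes, 9 had a read.

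Pcdhb22, the beta gene nearest the gamma cluster (37518353 to 37521419), had 4, 14 and 10 reads in MA9+EV and 1 in each MA9+SETDB1 library. Its ratio was 7.33 (2.26 to 37.7), with no overlap. Pcdhb16 (37477768 to 37483038) had 3, 7 and 4 reads in MA9+EV and none in MA9+SETDB1, at least 3.67-fold lower against the floor over the arm. All other beta reads came from 7 genes with 1 to 6 reads each. Of these Pcdhb17 had 6 reads, all in MA9+EV replicate 2, and Pcdhb5 alone had a read in MA9+SETDB1. All beta genes with reads lie from Pcdhb12 downstream except Pcdhb5.

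**Figure D1:**
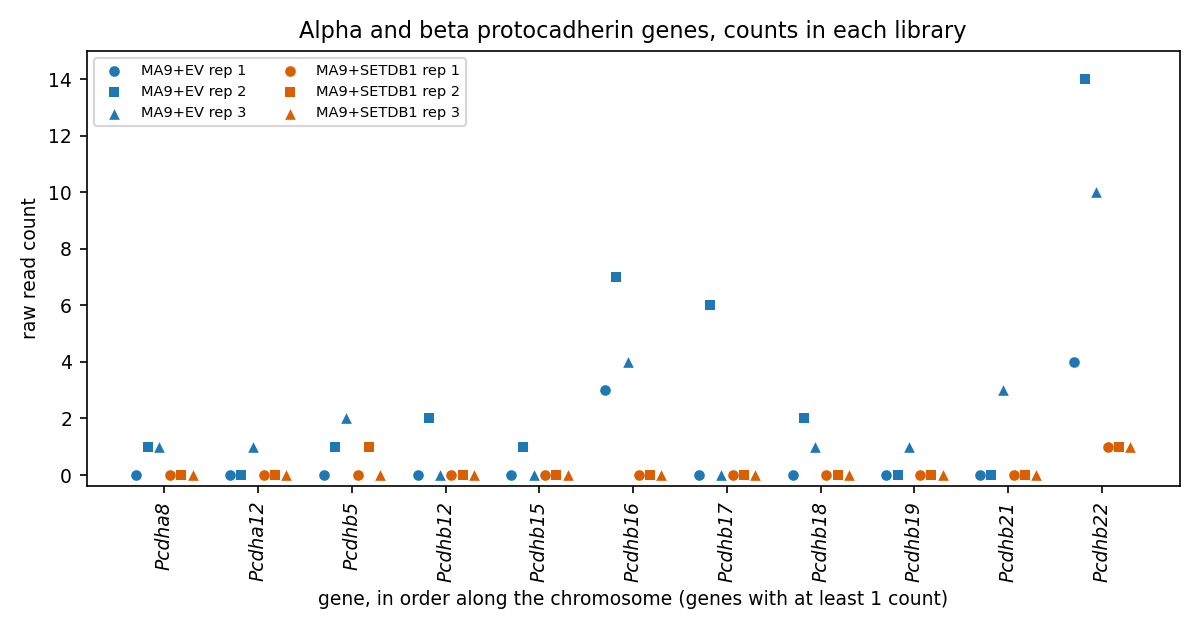
Raw read counts (y axis) of the 11 alpha and beta genes with at least 1 count (x axis, in order along the chromosome), 1 point per library, blue for MA9+EV and orange for MA9+SETDB1. Pcdhb16 and Pcdhb22 were read in all 3 MA9+EV libraries, and Pcdhb22 had 1 read in each MA9+SETDB1 library.

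The gamma cluster (chromosome 18, 37661775 to 37841873) held 1743 of the 1811 counted protocadherin reads. Reads in shared constant exons of the alpha and gamma clusters can go uncounted, so this share does not rank the clusters by RNA. The gamma sum was 489, 588 and 484 reads in the MA9+EV libraries and 30, 68 and 84 in MA9+SETDB1. The highest MA9+SETDB1 library was far below the lowest MA9+EV library, and MA9+SETDB1 replicate 1 was the lowest of its arm. Scaled sums were 23 ± 2.42 CPM and 3.39 ± 1.49 CPM (n = 3 each), with a ratio of 6.74 (5.78 to 7.9). Without replicate 1 of both arms the means were 24.4 and 4.25 CPM. Reads were found for 21 of the 22 genes, the exception being Pcdhgb1.

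**Figure D2:**
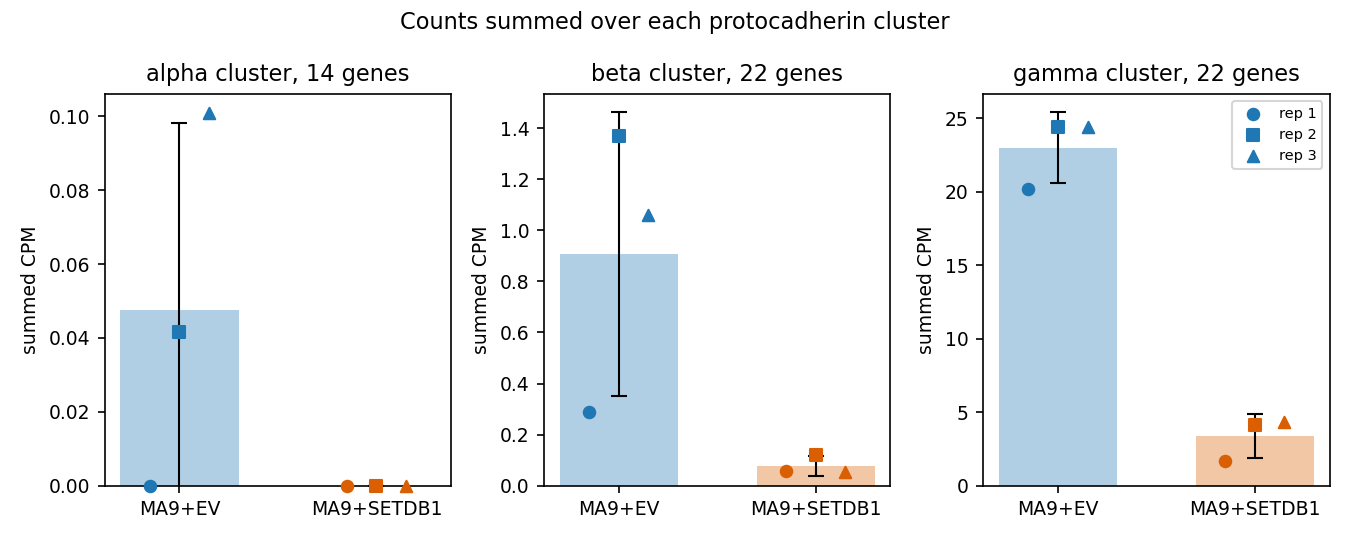
Summed CPM (y axis, a separate linear scale per panel starting at 0) of the alpha, beta and gamma genes. Bars are means, error bars SD over 3 libraries and points single libraries. Beta averaged 0.905 and 0.0765 CPM and gamma 23 and 3.39 CPM in MA9+EV and MA9+SETDB1, with no overlap, while alpha was near 0 in both arms.

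A single gene made up most of the gamma signal in MA9+EV. Pcdhgc3, a C-type gene expressed widely in neural and other tissues (37806410 to 37841873), had 347, 425 and 330 reads in the MA9+EV libraries and 0, 1 and 1 in MA9+SETDB1. That is 14.3, 17.6 and 16.6 CPM against 0, 0.0609 and 0.0519 CPM. Its log2 fold change was -8.54, with an SE of 0.45 and an edgeR adjusted p of 1.83e-05. The ratio of scaled reads was 433, and with only 2 reads in MA9+SETDB1 its interval ran from 120 to 3579. The other C-type genes were read rarely. Pcdhgc4 had 3, 2 and 4 reads in MA9+EV and 0, 0 and 1 in MA9+SETDB1, a ratio of 7.07 (0.98 to 310), and Pcdhgc5 had 3 reads, all in MA9+EV.

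Pcdhgb2 went the other way. This B-type gene (37689859 to 37841872) had 8, 9 and 7 reads in the MA9+EV libraries and 19, 30 and 53 in MA9+SETDB1, or 0.33, 0.373 and 0.353 CPM against 1.06, 1.83 and 2.75 CPM. Every MA9+SETDB1 library was above every MA9+EV library, with a wide spread among the former. Pcdhgb2 rose, with a log2 fold change of 2.40 (SE 0.44) and an edgeR adjusted p of 0.00346, and the ratio of scaled reads was 5.41 (3.44 to 8.83). It was the only one of the 58 genes that passed the test upward.

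The B-type genes Pcdhgb4, Pcdhgb5 and Pcdhgb6, which follow Pcdhgb2 along the cluster, fell. Pcdhgb4 (37720376 to 37841870) had 26, 31 and 27 reads in MA9+EV and 4, 6 and 3 in MA9+SETDB1 (log2 fold change -2.31 ± 0.39 SE, adjusted p by edgeR 0.00264). Pcdhgb5 (37730971 to 37841870) had 24, 34 and 38 reads against 0, 3 and 1 (log2 fold change -4.14 ± 0.73 SE, adjusted p by edgeR 0.00296). Pcdhgb6 (37742094 to 37841873) had 15, 15 and 13 reads against 1, 0 and 0 (log2 fold change -4.68 ± 0.72 SE, adjusted p by edgeR 0.00168). None of the 3 overlapped between arms. The log2 fold change of Pcdhgb5 was -5.45 without MA9+SETDB1 replicate 2, and that of Pcdhgb6 was -6.72 without MA9+SETDB1 replicate 1, each of which held most or all of that gene's few MA9+SETDB1 reads.

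These 5 genes were the only members with enough reads for the test after the low-count filter, so 1 of 5 was higher and 4 of 5 lower beside 27.4% and 26.2% of all tested genes. A gene could pass the filter through its high arm alone, and the count is therefore an inventory. Just inside the filter stood Pcdhgb6 with 44 reads over all libraries. Just outside stood Pcdhga2 with 45, Pcdhga5 with 43 and Pcdhga10 with 32. Every one of the 5 calls held under all 13 other settings, and the largest adjusted p reached was 0.0462, for Pcdhgb2. Without the low-count filter 32 members were tested by edgeR, with 1 higher and 9 lower, beside 16.0% and 14.5% of the 24595 genes then tested.

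The remaining B-type genes had few reads. Pcdhgb7 had 12, 1 and 8 reads in MA9+EV and 0, 4 and 6 in MA9+SETDB1, which overlapped (ratio 1.65, 0.744 to 3.92). Pcdhgb8, annotated as a transcribed pseudogene, had 2, 5 and 2 reads in MA9+EV and 0, 1 and 0 in MA9+SETDB1 (ratio 7.07, 0.98 to 310). Summed without Pcdhgb2, the B-type genes were at 3.75 ± 0.607 CPM in MA9+EV, against 0.55 ± 0.288 CPM in MA9+SETDB1 (n = 3 each, ratio 6.85, 4.66 to 10.4). With Pcdhgb2 the sums were 4.11 ± 0.613 and 2.43 ± 0.988 CPM (ratio 1.66, 1.34 to 2.06).

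The A-type genes summed to 52, 65 and 53 reads in MA9+EV and 6, 23 and 19 in MA9+SETDB1, with no overlap. Their scaled sums were 2.5 ± 0.31 and 0.908 ± 0.537 CPM (n = 3 each), a ratio of 2.78 (2.01 to 3.92), and single genes varied widely. Pcdhga10 had 18, 8 and 6 reads in MA9+EV and none in MA9+SETDB1, or 8.38-fold lower with the floor of 3 reads in place of 0. Pcdhga5 had 4, 23 and 14 reads against 1, 0 and 1, a ratio of 16.1 (4.18 to 137). Pcdhga7 had 5, 8 and 2 reads against none, or 3.93-fold lower against the same floor. All 3, together with Pcdhb16 and Pcdhb22, were called lower by edgeR when no low-count filter was applied, at adjusted p of 0.00532 for Pcdhga10, 0.0112 for Pcdhga5, 0.0279 for Pcdhga7, 0.0273 for Pcdhb16 and 0.0252 for Pcdhb22.

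Other A-type genes differed less or not at all beyond their spread. Pcdhga2 had 13, 14 and 8 reads in MA9+EV and 1, 3 and 6 in MA9+SETDB1; the arms did not overlap, the ratio was 2.75 (1.33 to 6.23), and without a filter the edgeR adjusted p was 0.134. Pcdhga1, the first gene of the cluster, had 4, 6 and 2 reads against 4, 5 and 8, which overlapped (1.8 times as much in MA9+SETDB1, interval 0.812 to 4.14). Pcdhga8 had 2, 1 and 4 reads against 0, 9 and 3, also overlapping (2.18 times as much in MA9+SETDB1, interval 0.792 to 6.54). The A-type genes Pcdhga3, Pcdhga4, Pcdhga6, Pcdhga9, Pcdhga11 and Pcdhga12 had fewer than 10 reads each, and their arms overlapped.

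**Figure D3:**
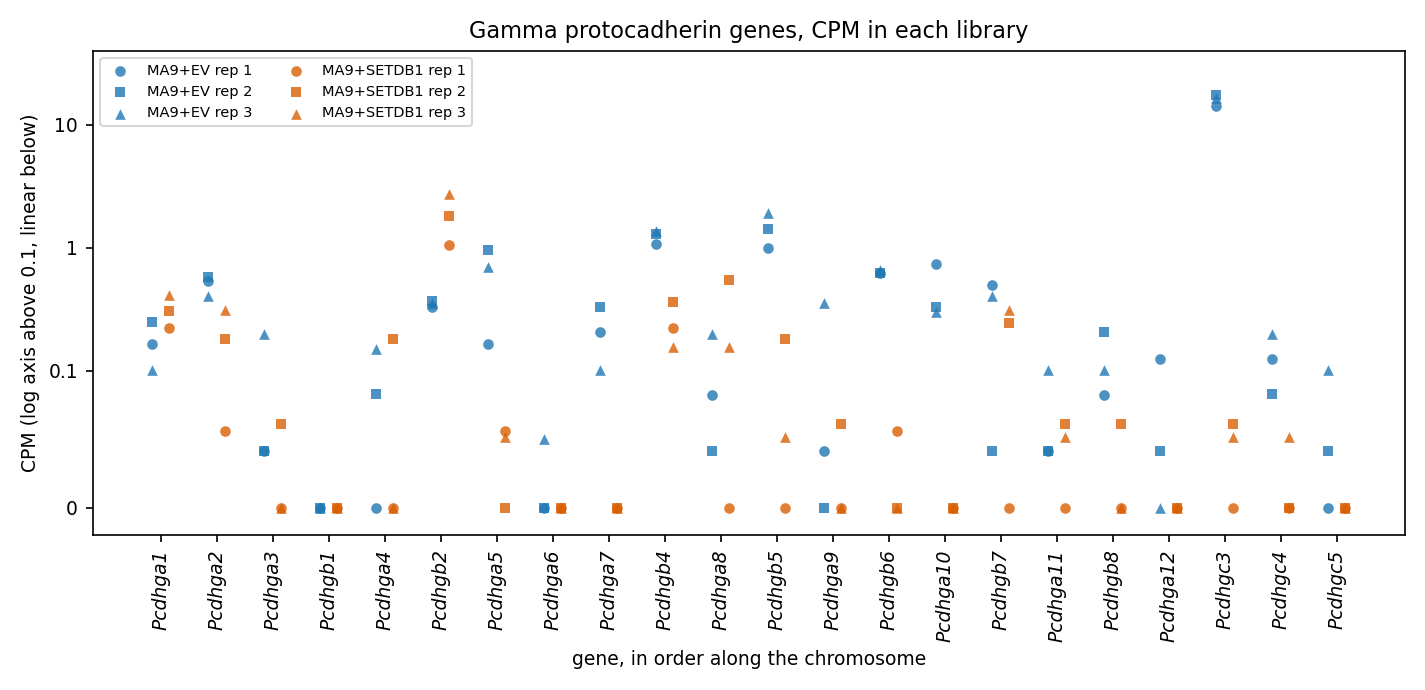
CPM (y axis, logarithmic above 0.1 and linear below) of the 22 gamma genes in order along the chromosome (x axis), 1 point per library, blue for MA9+EV and orange for MA9+SETDB1. Pcdhgc3 stands highest in MA9+EV, at 14.3 to 17.6 CPM, and Pcdhgb2 highest in MA9+SETDB1, at 1.06 to 2.75 CPM.

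Across the family, 16 members had at least 10 reads over the 6 libraries. In 12 of them every MA9+SETDB1 library was below every MA9+EV library, in 1 (Pcdhgb2) every one was above, and 3 overlapped (Pcdhga1, Pcdhga8 and Pcdhgb7). Among all 16742 genes with at least 10 reads, 29.2% were lower without overlap and 29.5% were higher. The 16 members with 1 to 9 reads all overlapped. They held 53 reads in MA9+EV and 8 in MA9+SETDB1, and each was higher in MA9+EV. No share over all genes is given for counts this low.

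The make-up of the gamma reads differed between the arms. Shares here are of reads, not scaled to transcript length. Their intervals also cover counting error only, and those over an arm pool the reads of its 3 libraries. Pcdhgc3 took 71%, 72.3% and 68.2% of gamma reads in the MA9+EV libraries and 0%, 1.47% and 1.19% in MA9+SETDB1, where the count of 0 among 30 reads in replicate 1 allows a share of up to 11.6% (exact binomial). Over each arm these were 70.6% (exact 95% interval 68.3 to 72.8) and 1.1% (0.133 to 3.91). Pcdhgb2 took 1.64%, 1.53% and 1.45% of gamma reads in MA9+EV and 63.3%, 44.1% and 63.1% in MA9+SETDB1. Over each arm its shares were 1.54% (0.988 to 2.28) and 56% (48.5 to 63.4). MA9+SETDB1 replicate 2, at 44.1%, lay below the latter interval. The most read gamma gene was Pcdhgc3 in each MA9+EV library and Pcdhgb2 in each MA9+SETDB1 library. The other B-type genes held a like share of reads in both arms, 16.2% and 15.9%, and the A-type genes 10.9% and 26.4%.

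**Figure D4:**
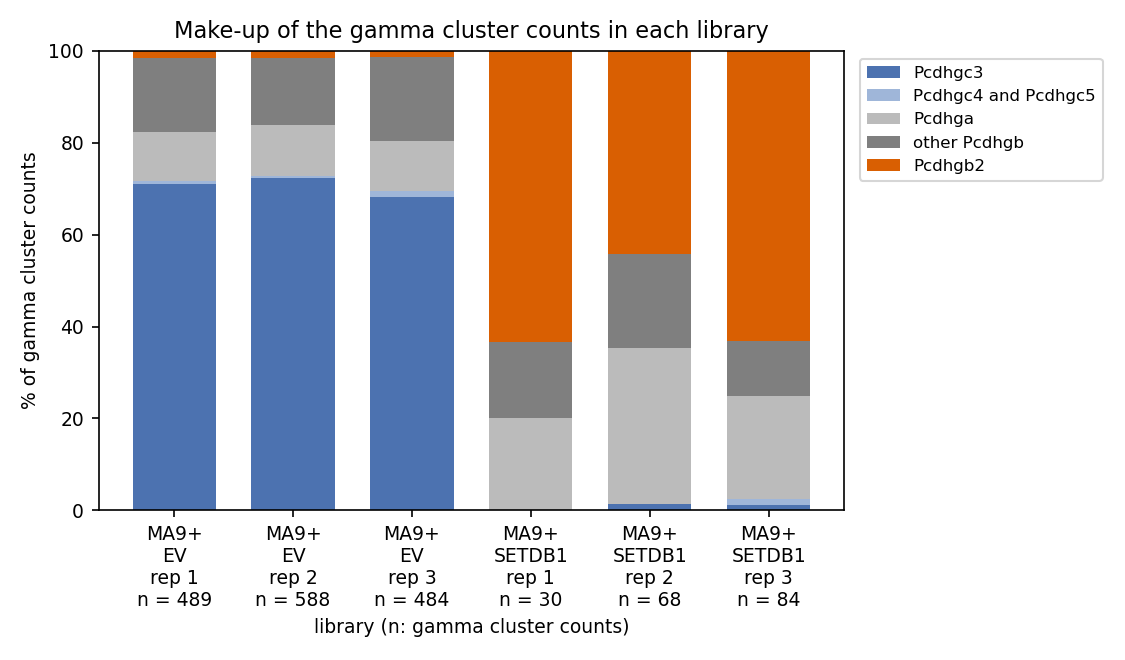
Percent of gamma cluster reads (y axis) taken by Pcdhgc3, by Pcdhgc4 and Pcdhgc5, by the A-type genes, by Pcdhgb2 and by the other B-type genes in each library (x axis, with its number of gamma reads). Pcdhgc3 fills 68.2% to 72.3% of each MA9+EV bar and Pcdhgb2 fills 44.1% to 63.3% of each MA9+SETDB1 bar.

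The gamma sum was also lower in MA9+SETDB1 when Pcdhgc3 was left out. Without it the sum was 142, 163 and 154 reads in MA9+EV and 30, 67 and 83 in MA9+SETDB1, or 6.79 ± 0.947 against 3.36 ± 1.46 CPM (ratio 2, 1.68 to 2.39). Without Pcdhgc3 and Pcdhgb2 it was 134, 154 and 147 reads against 11, 37 and 30, or 6.44 ± 0.937 against 1.48 ± 0.822 CPM (ratio 4.38, 3.44 to 5.65). The arms did not overlap in either sum.

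Position along the cluster was then described in a division chosen after the values were seen. The first 6 gamma genes, from Pcdhga1 to Pcdhgb2, had 26, 32 and 24 reads in MA9+EV and 24, 42 and 67 in MA9+SETDB1. Scaled, these were 1.07, 1.33 and 1.21 CPM against 1.34, 2.56 and 3.48 CPM, so the arms did not overlap, though MA9+SETDB1 replicate 1 was close to MA9+EV replicate 2. The means were 1.2 ± 0.127 and 2.46 ± 1.07 CPM, 2.06 times as much in MA9+SETDB1 (1.56 to 2.75). Pcdhgb2 carried that excess: the 5 genes before it had 18, 23 and 17 reads against 5, 12 and 14, a ratio of 1.47 toward MA9+EV (0.935 to 2.35). The 16 genes from Pcdhga5 to Pcdhgc5 had 463, 556 and 460 reads against 6, 26 and 17, a ratio of 23.7 (17.8 to 32.2). Of these, the 13 A-type and B-type genes from Pcdhga5 to Pcdhga12 had 113, 128 and 124 reads against 6, 25 and 15, a ratio of 6.23 (4.58 to 8.67). The first 6 genes thus took 5.25% of gamma reads in MA9+EV and 73.1% in MA9+SETDB1.

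Genes around the clusters were mixed. Zmat2, a zinc finger gene 131 kb upstream of the alpha cluster, was at 114 ± 12.7 and 117 ± 4.39 CPM in MA9+EV and MA9+SETDB1 (log2 fold change 0.03 ± 0.11 SE, adjusted p by edgeR 0.827; the sign changed with the scaling). Of 10 tested genes upstream 2 passed the edgeR test downward and 0 upward, beside 26.2% and 27.4% of all tested genes. At an unadjusted p under 0.05, 1 was higher, Tmco6 (log2 fold change 0.38, edgeR adjusted p = 0.0672, 0.0418 by DESeq2). The upward count was 1 with the replicate block, 1 by DESeq2, 2 without MA9+SETDB1 replicate 1 and 5 without replicate 1 of both arms. The lower genes were Slc35a4 (log2 fold change -0.89) and Cd14, the lipopolysaccharide co-receptor of monocytes (18 ± 7.31 against 0.689 ± 0.261 CPM, log2 fold change -4.69 ± 0.48 SE, adjusted p by edgeR 0.00029). Taf7, a TFIID subunit 17.6 kb before the gamma cluster, fell from 31.9 ± 2.3 to 22.1 ± 0.944 CPM (log2 fold change -0.53 ± 0.12 SE, adjusted p by edgeR 0.00892, rising to 0.123 when replicates 2 and 3 were pooled within each arm). Its neighbour Slc25a2, a mitochondrial ornithine carrier, had 0, 1 and 0 reads against 0, 0 and 2.

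Downstream, 4 of 8 tested genes on the list were higher and 1 was lower, beside 27.4% and 26.2% of all tested genes. The list leaves out Pcdh1, which lies in the same stretch, was also higher and is given with the non-clustered protocadherins below. Higher calls ranged from 4 to 6 over the other settings, with 6 without replicate 1 of both arms. The lower call, Gnpda1, was lost when replicates 2 and 3 were pooled within each arm. Diaph1 encodes an actin-nucleating formin, and the nearer end of its annotated span lies 1.73 kb after the gamma cluster, strand not considered. Diaph1 rose from 245 ± 11.2 to 778 ± 91.5 CPM (log2 fold change 1.66 ± 0.13 SE, adjusted p by edgeR 9.72e-05). Fchsd1 rose by 3.01 (edgeR adjusted p = 1.18e-05) and Rell2 by 2.97 on the log2 scale, Gnpda1 had a log2 fold change of -0.71, and Hdac3 was at -0.06 (edgeR adjusted p = 0.674). The list medians were 0.08 upstream and 0.99 downstream, beside -0.01 over all tested genes. The annotated spans of Pcdhgc3, at -8.54, and Diaph1, at 1.66, thus lay near each other, and these genes moved in opposite directions. The distance between their promoters was not measured.

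**Figure D5:**
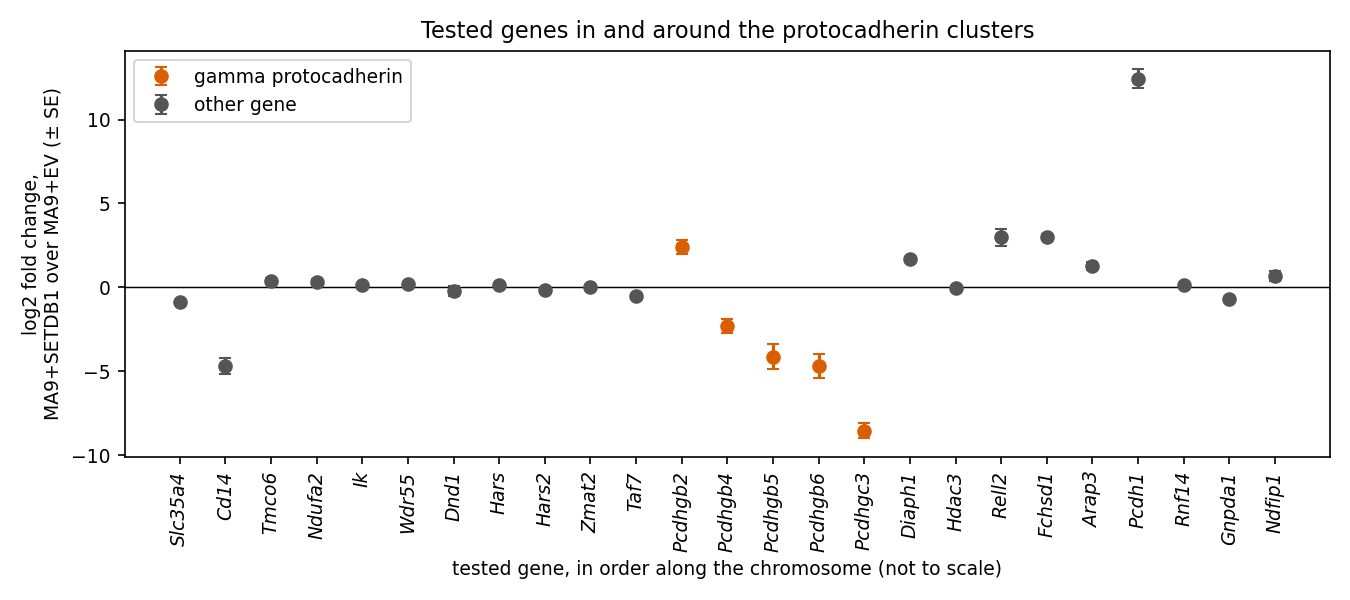
Log2 fold change of MA9+SETDB1 over MA9+EV (y axis, error bars ± SE) for the tested genes in order along chromosome 18 (x axis, not to scale), orange for gamma protocadherins and grey for other genes. Pcdhgb2 stands at 2.40 and Pcdhgc3 at -8.54; Pcdh1 had no read in MA9+EV, so its fitted height depends on the prior count.

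The factors known to act on the clusters were measured in the same libraries. Of 32 listed regulators, all were tested, with 7 higher and 7 lower (median log2 fold change -0.02), beside 27.4% and 26.2% of all tested genes. The count depended on the libraries and the scaling. It was 11 higher and 13 lower without replicate 1 of both arms. Higher calls numbered 4, 3 and 3 when MA9+EV replicate 1, 2 or 3 was left out, 4 when MA9+SETDB1 replicate 2 was, 4 without the low-count filter, 3 with upper-quartile factors and 1 with replicates 2 and 3 pooled within each arm. CTCF, the insulator protein that binds protocadherin promoters and enhancers, was read from its gene Ctcf at 184 ± 24.1 and 166 ± 18.4 CPM in the 2 arms (log2 fold change -0.15 ± 0.14 SE, adjusted p by edgeR 0.392). Rad21, a cohesin subunit, was at 420 ± 10.4 and 498 ± 32.7 CPM (log2 fold change 0.25 ± 0.11 SE, adjusted p by edgeR 0.0874, but 0.0276 without MA9+SETDB1 replicate 1, 0.0223 by DESeq2 and 1.30e-06 without replicate 1 of both arms). Of the other cohesin subunits listed, named here after their values were seen, Smc3 and Stag1 passed the test downward (log2 fold changes -0.47 and -0.81, edgeR adjusted p = 0.0242 and 0.014). Smc1a, at -0.17, and Stag2, at 0.07, did not pass (edgeR adjusted p = 0.323 and 0.67). Smchd1, a repressor of the clusters, was at 155 ± 22.5 and 152 ± 22.2 CPM (log2 fold change -0.03 ± 0.15 SE, adjusted p by edgeR 0.893).

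Dnmt3b, the de novo DNA methyltransferase known to methylate protocadherin promoters in the embryo, had 327, 316 and 278 reads in MA9+EV and 9, 5 and 5 in MA9+SETDB1. The arms were far apart. It fell from 13.5 ± 0.447 to 0.356 ± 0.13 CPM (log2 fold change -5.23 ± 0.30 SE, adjusted p by edgeR 2.64e-05). Its relative Dnmt3a rose from 11.7 ± 0.854 to 33.1 ± 9.61 CPM (adjusted p by edgeR 0.00203). Ehmt1, another H3 lysine 9 methyltransferase, fell from 94 ± 7.37 to 49.8 ± 6.49 CPM (log2 fold change -0.92). Its partner enzyme Ehmt2 rose (log2 fold change 0.29, edgeR adjusted p = 0.0332, but 0.11 without the low-count filter). Pds5b, a cohesin-associated protein, fell from 94.1 ± 9.78 to 46.7 ± 6.98 CPM (log2 fold change -1.01). The HUSH complex, which works with SETDB1, was mixed: Mphosph8 fell (log2 fold change -1.14, edgeR adjusted p = 0.0015), while Fam208a (Tasor) was at -0.02 and Pphln1 at -0.01 (edgeR adjusted p = 0.926 and 0.928). Atf7ip, a SETDB1 cofactor, rose (log2 fold change 0.50, edgeR adjusted p = 0.0101). Whether any of these moves bears on the protocadherin reads was not tested.

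Of 28 tested genes for proteins that process protocadherins or signal from them, 12 were higher and 3 lower (median log2 fold change 0.42), beside 27.4% and 26.2% of all tested genes. Higher calls ranged from 8 with replicates 2 and 3 pooled within each arm to 18 without replicate 1 of both arms. Lower calls numbered 7 without those 2 libraries and 5 without MA9+EV replicate 1. Fyn, a Src-family kinase, rose from 2.92 ± 0.372 to 97.1 ± 30.2 CPM (log2 fold change 5.05 ± 0.27 SE, adjusted p by edgeR 2.02e-05). Nckap1, a subunit of the WAVE actin-regulating complex, rose by 4.03 on the log2 scale (edgeR adjusted p = 2.98e-05). Ptk2, the focal adhesion kinase that gamma protocadherins are known to inhibit, rose from 3.2 ± 1.11 to 30.5 ± 6.11 CPM (log2 fold change 3.25 ± 0.32 SE, adjusted p by edgeR 0.000234). These are RNA values, and any link between these genes and the protocadherin reads was not tested.

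The non-clustered protocadherins are encoded by separate genes outside the 3 clusters, and 2 of 12 had enough reads for the test. Pcdh1, 344 kb downstream on the same chromosome, had no read in MA9+EV and 435, 669 and 708 in MA9+SETDB1 (edgeR adjusted p = 9.81e-05). It was 769-fold higher with the floor of 3 reads in place of 0. Pcdh7 had 45, 161 and 124 reads against 6019, 5749 and 6404 and rose from 4.93 ± 2.67 to 340 ± 9.06 CPM (log2 fold change 6.11 ± 0.48 SE, adjusted p by edgeR 9.59e-05). Both tested genes were higher, beside 27.4% of all tested genes, but a gene could pass the filter through its high arm alone. Without the low-count filter 7 were tested by edgeR, with 3 higher and 1 lower, beside 16.0% and 14.5% of all genes then tested. Pcdh11x, which failed the filter, had 97, 10 and 5 reads in MA9+EV, most of them in replicate 1, and none in MA9+SETDB1. In the wider cadherin superfamily 12 of 44 genes were tested, with 5 higher and 4 lower, beside 27.4% and 26.2% of all tested genes. When no low-count filter was applied, 30 were tested, with 9 higher and 4 lower, beside 16.0% and 14.5%. Cdh1, which encodes E-cadherin, rose from 0.341 ± 0.117 to 251 ± 70.2 CPM (log2 fold change 9.51). Cdh17, an intestinal cadherin, had a log2 fold change of 9.14, and Clstn3, a calsyntenin, of -5.63.

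Markers of cell types that are rich in protocadherins were given beside these results. Of 10 neuron markers 6 had no read. The list summed to between 0.0826 and 0.249 CPM in MA9+EV, against 80.6 to 89.8 CPM in MA9+SETDB1, almost all of it from Tubb3, a beta-tubulin, which rose to 78.1 ± 0.651 CPM, and Syn1, a synaptic vesicle protein, which rose to 8.28 ± 5.14 CPM. Among the 9 glia markers 5 had no read, and the sums were 49.3 to 55.1 CPM and 50.4 to 110 CPM. The 10 stromal markers, 1 without reads, summed to 1.08 to 1.61 CPM and 36.1 to 83.8 CPM. Most of this was Lepr in MA9+EV (1.16 ± 0.186 CPM) and Pdgfrb in MA9+SETDB1 (54.1 ± 24.9 CPM). The 8 endothelial markers, 5 without reads, summed to 231 to 366 CPM and 131 to 137 CPM. In MA9+EV, where Pcdhgc3 was read most, the neuron and stromal sums were low and the glia and endothelial sums were higher. Whether cells of these types gave any protocadherin reads was not tested. The part that the change in blood lineage markers had in the protocadherin values was not tested.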

How the data were processed

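Each library had 1 deposited file of raw counts per gene, which the authors had not normalized. The submitters' processing notes name GRCm38, cutadapt 1.18, STAR 2.6.0c and HTSeq 0.11.0. Strand setting, overlap mode and annotation release are not given in the sources used here. Reads that fit more than 1 gene were set aside in the summary lines of the files (ambiguous 1.14% to 1.2%, not unique 18.4% to 20.2% of entries; all summary lines 24.6% to 26.3%), and reads in constant exons shared by a cluster or in similar members can be lost this way. Gm37013, a gene model that runs from the alpha into the gamma cluster, had 0 counts in every library.

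Summary lines were left out. Of 54146 identifiers, 52480 matched a symbol by version and 1599 without it. The test was the quasi-likelihood F-test of edgeR 4.0.16 (R 4.3.3) on genes passing filterByExpr, with TMM factors, Benjamini-Hochberg adjusted over 12986 genes at 0.05; SEs came from the F statistic. It was run on simulated counts with far fewer changed genes and no replicate standing apart, so that check does not cover these features of the data. Ratios are of scaled summed reads with exact 95% binomial intervals, and an arm at 0 was set to 3 counts. Ratios against that floor have no interval and leave out the counting error of the higher arm. Sums over members were not tested.

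Named genes were Setdb1, all members with at least 10 counts, up to 3 tested members per list by smallest p, and fixed neighbours and regulators; others named were chosen after their values were seen. The members and lists were chosen with earlier results of these data known. Equal replicate numbers deviated together (correlations 0.257, 0.196 and 0.169 for numbers 1, 2 and 3), largely because replicate 1 stood apart. Crossed pairs were alike: 0.203 for MA9+EV replicate 2 with MA9+SETDB1 replicate 3, and 0.177 for MA9+EV replicate 3 with MA9+SETDB1 replicate 2. Pairing by number is therefore not shown for replicates 2 and 3. A fit with the number as a block was run as an alternative. The others were RLE and upper-quartile factors, total counts, no filter, DESeq2 1.42.0, each library left out, replicates 2 and 3 summed and, added after seeing the data, both replicates 1 left out.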

Additional observations from a re-analysis of the deposited data

How the results depend on the processing

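Every called member kept its direction and call under the 13 other settings. Without the low-count filter 9 members were lower, and otherwise 4 to 6. With the replicate block, members gave 1 higher and 4 lower, and all genes 3791 higher and 3761 lower; the block changed no member's call. Over all genes, summing replicates 2 and 3 of each arm gave 2292 higher and 1928 lower, and leaving out replicate 1 of both arms gave 5314 and 5285. Upper-quartile factors moved the split from 3554 higher and 3397 lower to 3301 and 3812. The beta mean in MA9+SETDB1 was 0.0203 CPM without Pcdhb22, and the gamma mean in MA9+EV was 6.79 CPM without Pcdhgc3, as fewer genes were summed. The log2 fold change of Smchd1 ranged from -0.14 to 0.09 with 1 library left out, and turned to 0.09, 0.01 and 0.06 without MA9+EV replicate 1, MA9+SETDB1 replicate 2 and MA9+SETDB1 replicate 3. That of Zmat2 ranged from -0.06 to 0.07 with 1 library left out, and turned to -0.04 with upper-quartile factors, -0.06 without MA9+EV replicate 1 and -0.04 without replicate 1 of both arms; the cause was not tested. Lepr, a stromal marker, lost its call in 6 settings (adjusted p up to 0.158). Depth limits the alpha cluster and the members with fewer than 10 reads, for which differences were mostly not detectable. In the alpha and gamma clusters, reads lost in shared constant exons can lower the counts further.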
